A study of Caenorhabditis elegans with 2 samples.

Results

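The X chromosome of Caenorhabditis elegans held 1688 of the 7168 thresholded HLH-30 peaks, chosen here only by the chromosome named in the peak list, and the other 5480 peaks were autosomal. The data are ChIP-seq, in which DNA bound by a protein is pulled down with an antibody and sequenced. They come from 2 biological replicates of whole hermaphrodites at the L4 larval stage, in 1 group, with no second condition. All worms were of strain OP433, with the genotype unc-119(tm4063) III; wgIs433, and carried HLH-30 fused to GFP, which an anti-GFP antibody pulled down. The transgene is an insertion, and the labels do not say whether untagged HLH-30 was also made. Age in hours and the promoter of the transgene are not given there either, and signals from all tissues are pooled.

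HLH-30 is the worm counterpart of mammalian TFEB, a basic helix-loop-helix leucine-zipper factor that moves to the nucleus on fasting or stress and switches on autophagy, lysosome and lipid-breakdown genes. Such factors bind short DNA sequences called E-boxes. Hermaphrodites have a pair of X chromosomes and males a single one, and in hermaphrodites a dosage compensation complex loads onto the X at recruitment sites and lowers its transcription. The X is also known for few germline-expressed genes and few operons, and for recombination-rich arms that differ less from the centre than those of the autosomes.

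The windows below were picked because they hold an E-box, and show the letters that the later counts search for. Of the 20 strongest X peaks 10 hold neither form within 50 bp of the summit, the strongest, that near C30E1.4, among them. The windows run 50 bp to each side of the summit, on the plus strand of WBcel235, which is ce11. They are named for the gene of the peak, and capitals mark the E-box. The windows of aakg-3, epg-7 and F09A5.3 hold the form CACGTG. Those of C18B12.4, F17H10.1 and zfp-3 hold the form CACATG, in zfp-3 read from the other strand. These are the 3 strongest X peaks with each form.
aakg-3 (chrX:2971603-2971703): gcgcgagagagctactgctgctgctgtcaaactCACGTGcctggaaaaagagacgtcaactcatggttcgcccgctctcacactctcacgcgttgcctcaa
epg-7 (chrX:7334498-7334598): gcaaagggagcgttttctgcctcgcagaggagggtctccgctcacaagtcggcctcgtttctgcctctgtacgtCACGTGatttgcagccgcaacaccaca
F09A5.3 (chrX:13145323-13145423): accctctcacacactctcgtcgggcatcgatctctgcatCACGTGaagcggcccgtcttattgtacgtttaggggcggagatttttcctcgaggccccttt
C18B12.4 (chrX:15040867-15040967): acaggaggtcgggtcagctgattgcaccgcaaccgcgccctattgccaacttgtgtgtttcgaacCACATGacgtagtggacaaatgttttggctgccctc
F17H10.1 (chrX:13105059-13105159): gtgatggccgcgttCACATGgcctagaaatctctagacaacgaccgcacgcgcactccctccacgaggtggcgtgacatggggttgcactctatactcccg
zfp-3 (chrX:1446913-1447013): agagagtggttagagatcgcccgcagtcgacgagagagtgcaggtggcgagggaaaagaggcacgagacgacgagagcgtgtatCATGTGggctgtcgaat

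The strongest X peak, with a pooled signal value of 699.8, lay between genes, and its replicate values were 352.5 and 360. The signal value is the authors' own measure of peak strength. Its scale is not given, and pooled values are close to the sum of those of the replicates. The nearest 5′ end of a protein-coding transcript was that of C30E1.4, 5835 bp away. A gene annotated as ncRNA, C30E1.9, lay within 500 bp of the summit. The next, at 691 (370 and 327.9), was 4795 bp from the 5′ end of aakg-3, a regulatory subunit gene of the energy sensor AMPK. A second AMPK gene, aak-2, which encodes a catalytic subunit, held the 11th X peak in an intron, at 532.6 (270.2 and 264.7). Both replicates had these 3 peaks far above the X median, and none of the 3 was in a promoter window.

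Promoter windows held 11 of the 20 strongest X peaks. A promoter window here runs from 1000 bp upstream to 200 bp downstream of the 5′ end of any protein-coding transcript. The peak of epg-7, whose product links cargo to the autophagy machinery, was at -166 bp from the 5′ end, with 323.3 and 290.4 in the replicates. The peak of epn-1, the gene of the endocytic adaptor epsin, reached 596 (316.7 and 279.4). The peak of puf-9, which encodes a Pumilio-family RNA-binding protein, reached 587.7 and was higher in replicate 2 (320.4) than in replicate 1 (263.3). Those of ipla-2, a phospholipase gene, nipi-3, the gene of a Tribbles-like pseudokinase of the innate immune response, and oga-1, which encodes the enzyme that removes O-GlcNAc from proteins, had pooled values of 564.9, 544.1 and 526.2. The promoter peaks of C33A11.2 and F40F4.7 had 467.9 and 441.2. The last of the 20, between genes and nearest to the 5′ end of pigx-1, had 430.3, and the 17th, in a noncoding RNA exon and nearest to F09E10.1, had 468. The weakest of the 1688 X peaks, at the promoter of cbs-1, had 31.9, with 13.03 and 18.71 in the replicates.

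Over all X peaks the median signal was 59.37, with quartiles of 42.57 and 101.1, against an autosomal median of 62.31. When all peaks were cut into 5 equal groups by signal, the strongest group held 19.31% of X peaks and 20.2% of autosomal ones, a difference of -0.89 points with an interval from -3 to 1.33 (Fisher's exact test, two-sided, adjusted p = 0.474). X peaks made up 26% of the 100 strongest peaks, 22.4% of ranks 101 to 1000 and 23.7% of ranks 1001 to 7168. Among the strongest 7168 peaks of each replicate, 77.37% of X peaks were found in both, and 78.81% of autosomal peaks (Fisher's exact test, adjusted p = 0.306). Across X peaks, the replicates' signal values had a Spearman correlation of 0.746, which describes peaks of 2 libraries and carries no test. Of the X peaks, 17 were among the strongest of neither replicate.

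**Figure D1:**
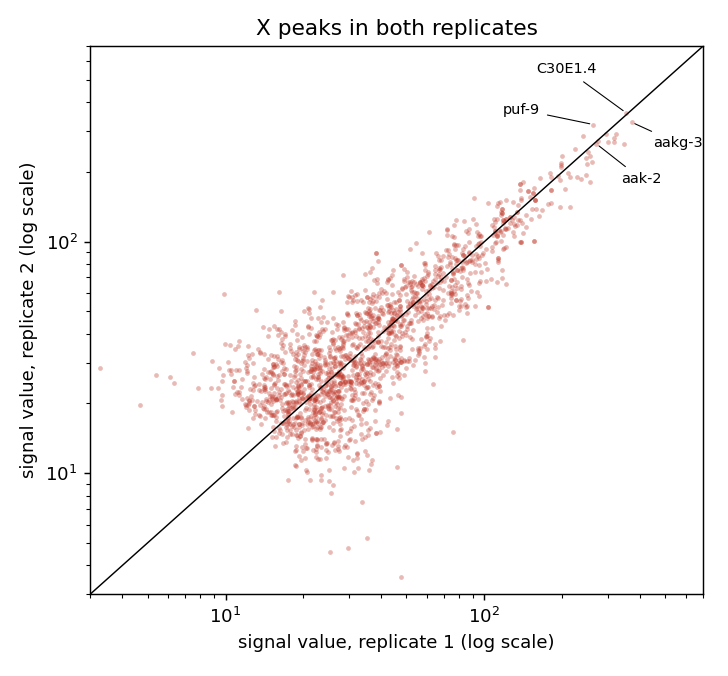
Signal value of each X peak in replicate 1 (horizontal) and replicate 2 (vertical), both on log scales and without a stated unit, with the line of equality. Each point is a peak with an entry in both lists, and the strong peaks, such as those at C30E1.4 and aakg-3, lie close to the line while weak peaks spread around it.

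The first comparison asked how densely the X was occupied. It carried 95.27 peaks per Mb over 17.72 Mb, against 66.38 on the autosomes together and 54.82 to 83.14 on single autosomes, a ratio of 1.44 between X and autosomes. The replicates' own strongest 7168 peaks gave ratios of 1.39 (replicate 1) and 1.43 (replicate 2). It was 1.36 in the strongest 3584 peaks of the list and 1.51 in the rest. The pooled entries below the threshold, which hold peaks and background together, had a ratio of 1.42. No test was made on density, since the X is a single chromosome. The density of X peaks was above that of every autosome in the thresholded list and in both replicates.

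The X is the chromosome with the fewest protein-coding genes per Mb, 154.1 against 187.6 to 238.7 on the autosomes. In whole bins of 1 Mb it held 61.18 peaks per 100 genes, against 31.61 on the autosomes. Neighbouring summits were a median of 4453 bp apart on the X and 5618 bp apart on the autosomes.

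**Figure D2:**
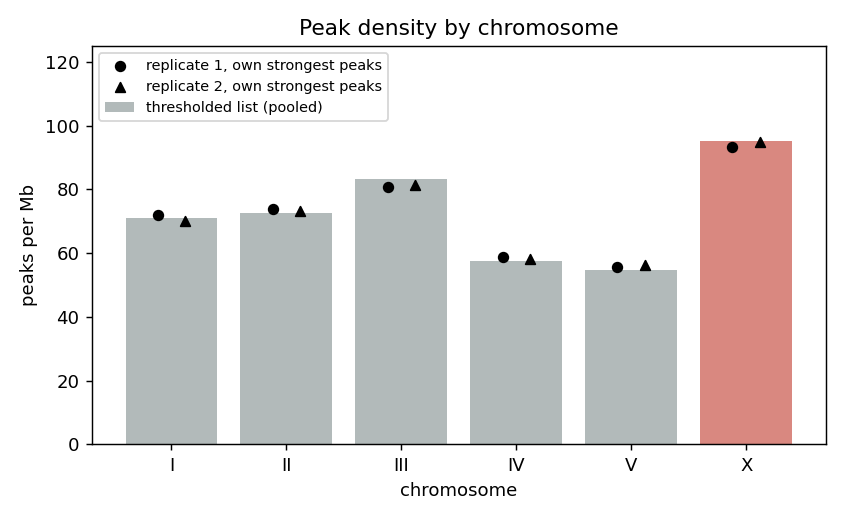
Peaks per Mb (vertical) on each chromosome, with bars for the thresholded list and points for the strongest 7168 peaks of each replicate alone. The X bar stands at 95.27, above the highest autosomal bar at 83.14, and the replicates' points lie close to the bars.

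Along the X, peaks were spread more evenly than along the autosomes. Cut into 3 equal stretches, the X held 485 peaks on the left, 583 in the middle and 620 on the right, so that the middle stretch held 34.54% of them, against 41.36% to 49.35% on the 5 autosomes. That stretch holds 35.74% of the X genes and 35.98% to 40.57% of those of each autosome. The middle share on X was 34.71% in replicate 1 and 34.84% in replicate 2. Counts per 1-Mb bin ran from 55 to 136 on the X (coefficient of variation 20.9%) and from 11 to 133 on the autosomes (30.4% to 50.2% within a single autosome). The lowest X bins were the first and second Mb from the left end, with 55 and 60 peaks, and the highest was that from 13 to 14 Mb, with 136. The longest stretch without a summit, 229221 bp, lay in the second Mb (chrX:1627134-1856355) and spans 41 protein-coding genes.

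**Figure D3:**
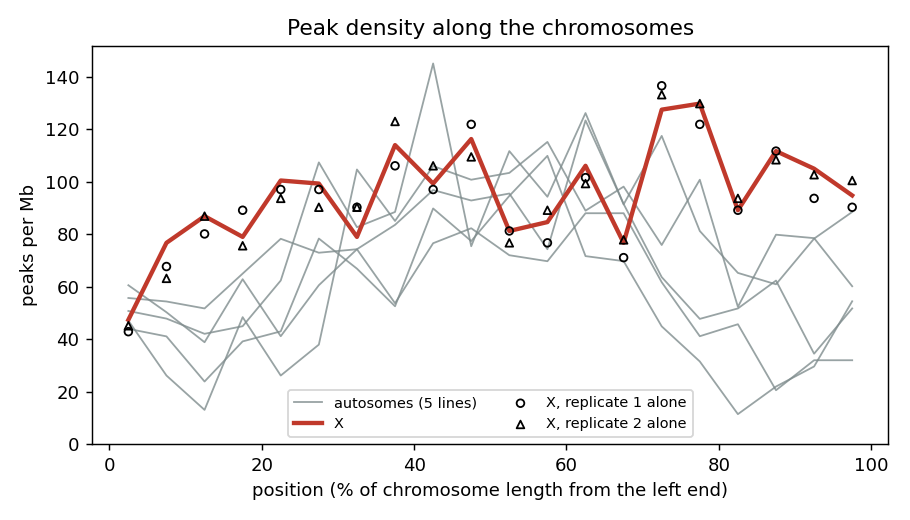
Peaks per Mb (vertical) in 20 equal stretches of each chromosome, by position in percent of its length from the left end. The X line is low at the left end and stays high to the right end, while autosomal lines are highest around the middle, and the replicates' points for X follow its line.

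The X window of 100 kb with the most summits (chrX:13300001-13400000) held 36, and the highest count in such a window on any autosome was 28. Of the 36, 20 were between genes and 10 in promoters, and 34 and 35 peaks fell there in the replicates' own lists. It holds sir-2.2, a sirtuin gene with a promoter peak of 257.1 (130.4 and 128), and mxl-3. The latter encodes a Max-like leucine-zipper factor that represses lipase genes in fed worms. Summits outside promoter windows and gene bodies were assigned to the gene with the nearest protein-coding 5′ end. In this way mxl-3 was given 9 of the peaks, 7 of them between genes. The next window (chrX:11400001-11500000) held 27, of which 22 were assigned to lin-14, 4 of them between genes. That gene encodes a heterochronic factor that sets the timing of larval fates. In lin-14, 15 summits were in introns, the strongest at 487.4 (254.6 and 234.6), while the strongest of its 3 promoter peaks reached 131.1 (60.49 and 72.45). In the third window (chrX:6700001-6800000), 11 of 26 peaks were assigned to mdl-1, which encodes a Mad-like partner of the Max-like factors. Of these 11, 6 were between genes. The 11 lay within 7777 bp. The strongest, in a noncoding RNA exon and assigned by the nearest 5′ end, reached 478.7 (259.5 and 221.6). E-boxes of either form stood within 50 bp of 30.6%, 48.1% and 57.7% of the summits in these windows, in that order, against 26.5% of all X summits.

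Fewer X summits than autosomal ones lay in promoters. Promoter windows held 717 of 1688 X summits, 42.48% (95% Wilson interval 40.14 to 44.85), and 54.05% of autosomal ones, with single autosomes between 52.3% and 58.24%. The difference was -11.6 points with an interval from -14.3 to -8.86 (Fisher's exact test, two-sided, adjusted p = 1.478e-15), and it was -11.6 and -11.8 points in the replicates. Here and below p-values are Benjamini-Hochberg adjusted over 16 tests of X against autosomal peaks. Peaks of a chromosome are not independent replicates, so intervals and p-values cover counting error only, and the range over the 5 autosomes is the fairer measure of how chromosomes vary.

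X summits were more often between genes, in introns and in exons. Intergenic summits made up 28.85% on X and 24.42% on autosomes, where the highest single share was 25.56% (Fisher's exact test, adjusted p = 0.00081). Introns held 19.67% and 16.3% (exact test, adjusted p = 0.00328), coding exons 3.32% and 1.68% (exact test, adjusted p = 0.000255), and exons of noncoding RNAs or pseudogenes 4.86% and 2.28% (exact test, adjusted p = 9.559e-07). The intron share was above that of every autosome in the pooled list, where chromosome III had 19.11%, but not in either replicate alone (19.5% against a highest of 19.78%, and 19.12% against 19.79%). In the strongest 3584 peaks the intron and coding-exon differences were 2.16 and 0.65 points and did not pass (exact test, adjusted p = 0.238 and 0.209). The 5′ UTR and 3′ UTR shares, 0.237% and 0.592% on X, did not pass either (exact test, adjusted p = 0.372 and 0.474).

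The make-up of the X also differs, since promoter windows cover 21.82% of it and 27.06% of the autosomes, and intergenic sequence 30.33% and 21.27%. Per Mb of the same class, X summits were denser in promoters (185.4 against 132.6, and 106.2 to 178.9 on single autosomes) and in introns (72.48 against 39.55, and 31.76 to 51.01). Between genes the X value, 90.63 per Mb, lay within the autosomal range of 54.99 to 104.9. In coding exons it was 18.99 against 5.76.

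**Figure D4:**
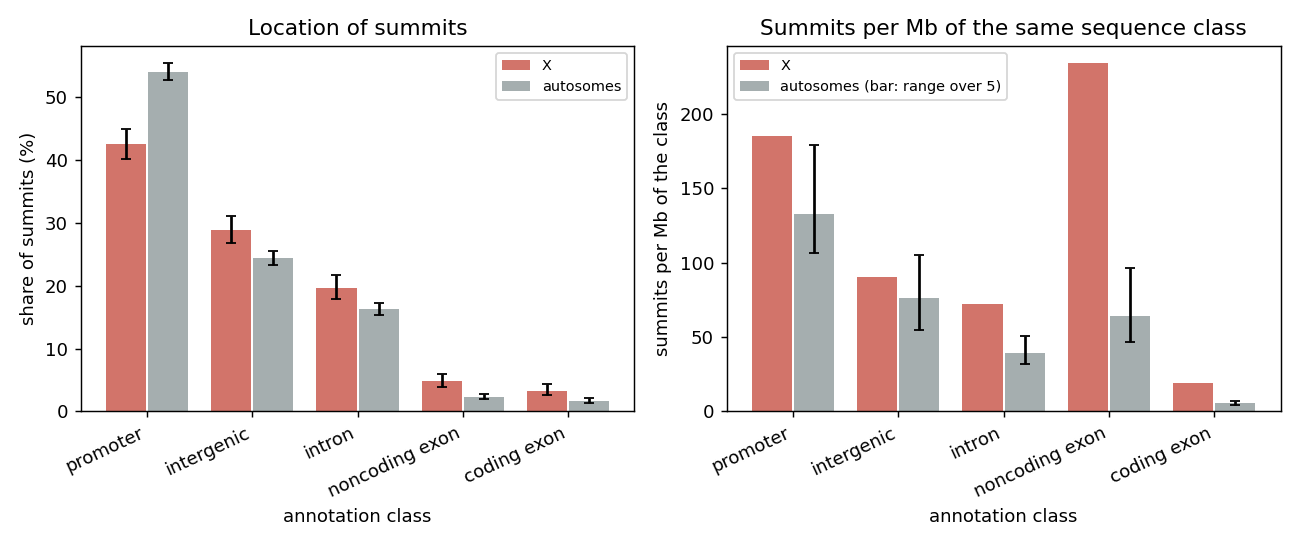
Left, share of summits (%) by annotation class on X and autosomes with 95% Wilson intervals. Right, summits per Mb of sequence of the same class, where the line on the autosomal bar is the range over 5 autosomes; promoter, intron and exon densities of X lie above that range, and the intergenic density of X, at 90.63, lies inside it.

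Summits lay farther from 5′ ends on the X, where fewer of them were in promoter windows, which lie at 5′ ends by definition. The median distance to the nearest protein-coding 5′ end was 994 bp, against 649 bp on the autosomes and at most 730 bp on a single one. Distances over 5000 bp were found for 6.93% of X summits and 4.91% of autosomal ones (Fisher's exact test, adjusted p = 0.00328), with 6.845% on chromosome IV. In the strongest 3584 peaks this difference was 1.64 points and did not pass (exact test, adjusted p = 0.147). The share with another summit within 1000 bp was 25.65% and 24.09%, a difference of 1.56 points with an interval from -0.77 to 3.97 (exact test, adjusted p = 0.306).

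Median signal on the X was 63.86 in promoters, 63.05 between genes, 60.9 in noncoding exons, 54.46 in introns and 44.55 in coding exons. The strongest 3′ UTR and 5′ UTR peaks, at catp-5 and C01C4.3, had 111.4 and 87.18. The strongest coding-exon peak was that of pks-1, which encodes a polyketide synthase, at 173.9 (106 and 68.97). With X peaks cut into 5 equal groups by signal, 50.74% of the strongest group and 40.83% of the weakest were in promoters.

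Transfer RNA genes, which are short and transcribed by RNA polymerase III, are concentrated on the X, with 276 of them or 15.58 per Mb against 4.07. A summit lay within 500 bp of 190 of these 276 (68.8%) and of 50.6% of the autosomal ones. On the other side, 159 X peaks (9.42%) and 2.85% of autosomal peaks were near a tRNA gene. Without these peaks the ratio of X to autosomal density was 1.34, the promoter shares were 44.74% and 54.71%, and the noncoding-exon shares 3.07% and 2.03%. Of the 82 X summits in noncoding exons, 44 were in exons annotated only as ncRNA and 34 in tRNA genes. Of the microRNA genes, 14 of 74 on X (18.9%) and 22.99% on the autosomes had a summit within 500 bp. The strongest such peak, the sixth on the X at 587.9 (317.9 and 269.7), was in an intron of F09A5.3 close to mir-54, mir-55 and mir-55b.

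The shares of X and autosomal summits with an E-box were close. CACGTG stood on either strand within 50 bp of 10.96% of X summits and 11.08% of autosomal ones, a difference of -0.12 points with an interval from -1.76 to 1.66 (Fisher's exact test, adjusted p = 0.929). In windows of the same length 500 bp to the left of the summit the shares were 2.13% and 2.01%. CACATG stood at 16.53% and 14.74% of summits (exact test, adjusted p = 0.132), with 3.32% and 2.85% in the shifted windows. Its difference passed in replicate 1 alone, at 2.81 points (exact test, adjusted p = 0.00942), and in the strongest 3584 peaks of the pooled list, at 4.26 points (exact test, adjusted p = 0.0146), but not in replicate 2 alone. Over the whole X, CACGTG occurred 139.2 times per Mb and CACATG 390.9 times, against 184.9 and 334.4 on the autosomes.

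Stronger X peaks held E-boxes more often, with either form at 37.1% of the strongest of the 5 groups and 17.8% of the weakest. CACGTG went from 17.2% to 4.14% and CACATG from 22.0% to 13.6%. Either form was found at 31.9% of intron summits, 29.6% of intergenic summits and 22.4% of promoter summits of the X. The autosomal shares were 29.9%, 28.3% and 21.2%. In coding exons the X share was 21.4% (12 of 56) and the autosomal one 48.9%, with intervals of 12.71 to 33.82 and 38.95 to 58.96. That contrast was seen after tabulating the classes and was not tested.

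The repeat GAGAGA was less frequent at X summits. It stood within 50 bp, on either strand, at 18.9% of X summits and 25.69% of autosomal ones, a difference of -6.8 points with an interval from -8.94 to -4.55 (Fisher's exact test, adjusted p = 5.266e-08). Single autosomes ranged from 22.32% to 29.01%, and the difference was -6.64 and -5.83 points in the replicates. Promoter summits had 22.0% on X and 23.8% on autosomes, while intergenic summits had 16.22% and 30.04%. In the shifted windows the shares were 4.86% and 6.06%. The letters CTTATC, a site of GATA factors such as the intestinal ELT-2, stood at 9.18% and 10.04% of summits (exact test, adjusted p = 0.402).

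A small set of X peaks held GCGCAGGG, letters at the core of the motif known from recruitment sites of the dosage compensation complex. It was searched on both strands within 50 bp of the summit and found at 15 of 1688 X summits, 0.889% (interval 0.539 to 1.46), and at 4 of 5480 autosomal ones, 0.073% (Fisher's exact test, adjusted p = 2.09e-06). No single autosome exceeded 0.198%. It was found at 16 of 1651 X summits in replicate 1 alone and at 14 of 1679 in replicate 2 alone. In the shifted windows it occurred at 1 X peak and 3 autosomal ones. The X has 81 such sites, 4.57 per Mb against 2.82 on the autosomes. Of these 81, 17 lay within 50 bp of a summit (20.99%), and of the 233 autosomal sites 4 did (1.72%).

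The signal of these 15 peaks ran from 35.73 to 265.8 with a median of 183.1, above the 59.37 of all X peaks. They were found mostly away from promoters, with 8 between genes, 3 in introns, 3 in promoters and 1 in a coding exon. Promoters held 42.48% of all X summits. An E-box of either form stood at 2 of the 15, against 26.5% of all X summits. Of the 15, 14 were among the strongest of both replicates. That held for 77.37% of all X peaks, and for 99.38% of the X peaks among the strongest 3584. No profile of the dosage compensation complex is among the data, so whether it occupies these places in the same worms was not tested.

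The windows of the 4 strongest and of a peak with the letters at both ends are shown. They were picked because they hold the letters, so sharing them follows from that choice. The windows run 50 bp to each side of the summit on the plus strand of WBcel235. Each is named for the gene that holds the summit (mom-1) or the protein-coding gene with the nearest 5′ end. Capitals mark each GCGCAGGG, or CCCTGCGC on the other strand.
W02H3.3 (chrX:11094169-11094269): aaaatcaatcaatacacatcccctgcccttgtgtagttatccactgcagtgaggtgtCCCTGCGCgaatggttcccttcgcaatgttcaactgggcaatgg
F20B6.9 (chrX:4209259-4209359): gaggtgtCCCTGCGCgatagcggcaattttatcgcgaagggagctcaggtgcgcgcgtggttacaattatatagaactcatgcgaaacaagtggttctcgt
xol-1 (chrX:8036332-8036432): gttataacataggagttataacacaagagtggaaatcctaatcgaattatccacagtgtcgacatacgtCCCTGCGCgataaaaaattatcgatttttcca
mom-1 (chrX:6296508-6296608): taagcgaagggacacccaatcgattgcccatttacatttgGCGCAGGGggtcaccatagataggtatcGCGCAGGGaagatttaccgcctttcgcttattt
gtr-1 (chrX:806659-806759): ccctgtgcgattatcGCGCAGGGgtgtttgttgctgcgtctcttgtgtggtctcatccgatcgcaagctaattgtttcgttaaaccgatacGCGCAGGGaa

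The peak near W02H3.3 had a pooled signal of 265.8 (121.5 and 151.3), and that near F20B6.9 had 262.4 (112.8 and 147.5). The peak near xol-1, the switch gene that sets male or hermaphrodite fate, was 4931 bp from its 5′ end, with 255.6 (116.6 and 138.5). A tRNA gene lay within 500 bp of that summit. The peak in an intron of mom-1, a Wnt-pathway gene, had 248.1 (125.6 and 127.7) and 2 copies of the letters. The peak near gtr-1 had 200.3 (106.9 and 91.25), also with 2 copies. In the first 3 of these peaks replicate 2 was the higher, and in the peak near gtr-1 replicate 1 was.

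Of the 2731 protein-coding genes on X, 667 (24.4%) had at least 1 peak in a promoter window, against 19.4% of the autosomal genes and 14.94% to 26.93% on single autosomes. The X share was within that range. Both shares are the background for the gene groups below. A further 143 X genes had a peak only inside the gene outside its promoters. Most promoter peaks of the X lay in the window of a single gene, and 53 of 717 (7.39%, interval 5.70 to 9.54) lay in windows of 2 or more genes, against 25.5% (23.95 to 27.09) on the autosomes. This difference was not tested. Among genes with a promoter peak, 87 (13.0%) had 2 or more, led by hrg-1, the gene of a heme transporter, with 4. Those with 3 included mdl-1, nhr-1 and M60.4, whose strongest promoter peak had 240.7 (91.43 and 155).

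**Figure D5:**
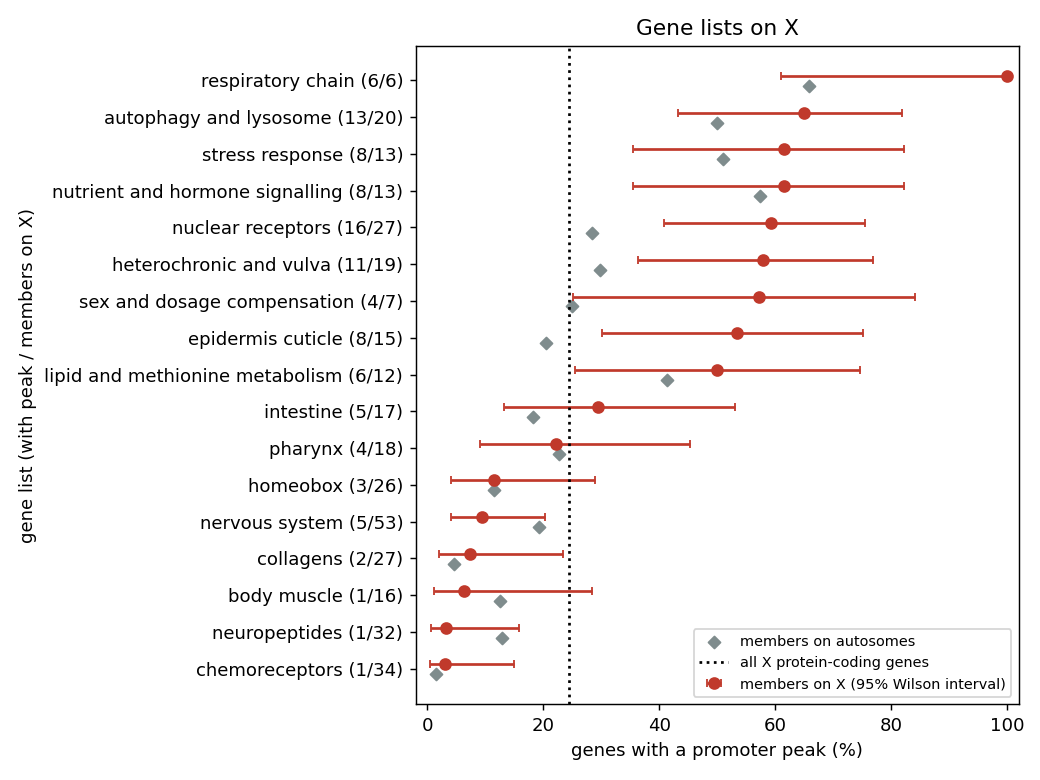
Share of the members of each gene list with a promoter peak (horizontal, %), for members on X (circles, 95% Wilson intervals) and on the autosomes (diamonds), for lists with at least 5 members on X. The dotted line is the share over all X genes, 24.4%; respiratory chain and autophagy lists lie to its right, and neuropeptide and chemoreceptor lists to its left.

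Gene lists are described by counts alone, beside 24.4% for all X genes, and no test was run on them. Autophagy and lysosome genes had a promoter peak in 13 of 20 X members and in 50% of autosomal ones. After epg-7 came atg-16.1, part of the complex that attaches lipid to Atg8 proteins, with 210.8 (110 and 98.43). It was followed by ppk-3, a lipid kinase gene of late endosomes and lysosomes, with 121.1 (61.34 and 56.68), and vha-12, a subunit gene of the proton pump that acidifies lysosomes, with 112.9 (52.49 and 60.82). The mitophagy receptor gene dct-1 had no promoter peak in the thresholded list but had one among the strongest peaks of each replicate alone. It had the nearest 5′ end to a peak of 476.1 (246.6 and 230.1) in a noncoding RNA exon, 2618 bp away. The lysosomal genes hex-1 and lmp-2 had none.

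Nutrient and hormone signalling had 8 of 13 X members with a promoter peak, and 57.45% of autosomal ones. The strongest was akt-2, a kinase gene of the insulin pathway, with 260.2 (137 and 124.5). The AMPK gene aakg-4 had 134.7 (59.21 and 75.12), and kin-29, which encodes a salt-inducible kinase, had 106.4 (58.97 and 48.57). The strongest promoter peak of aak-2, at -951 bp, was weaker, with 94.44 (50.86 and 49.62), than the intron peak given above. The steroid-hormone receptor gene daf-12 had 41.5 (13.36 and 34.35) and was not occupied in replicate 1 alone, and daf-9, which makes its ligand, had no peak. The aakg-3 peak lies outside its promoter windows, so aakg-3 is counted as without one.

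Both X members of the Max-like network had promoter peaks, mdl-1 with 253.2 (155.5 and 100.5) and mxl-3 with 160.8 (78.53 and 83.17). Of the lipid and methionine metabolism list 6 of 12 X members had one, and 41.25% of autosomal ones. The strongest was that of acs-17, an acyl-CoA synthetase gene, with 149.7 (67.75 and 83.01). It was followed by dhs-28, of peroxisomal fatty-acid oxidation, with 126.5, and the phospholipid synthesis genes cept-1 and pcyt-1 with 103.4 and 57.99. The sams-1 promoter, of the enzyme that makes S-adenosylmethionine, had 52.93 (17.04 and 33.52). Of these metabolic genes lbp-1 and lbp-2, of fatty-acid-binding proteins, had no peak.

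Stress-response genes had promoter peaks in 8 of 13 X members and in 50.98% of autosomal ones. In the X members the strongest promoter peaks had a median of 145.2. The highest was cebp-1, a bZIP factor gene, with 272.8 (151 and 124.9), and the MAP kinase kinase gene mek-1 had 153.4 (78.36 and 75.31). Genes of the unfolded protein response of the endoplasmic reticulum were among them: the chaperone gene hsp-3 with 245.7 (126 and 120.1), atf-4 with 234.1 (120.1 and 112.9), atf-6 with 137.1 (74.36 and 61.49) and the sensor kinase gene pek-1 with 118.3 (38.84 and 82.56). The replicates were close in these peaks except at pek-1, where replicate 2 was the higher. The stress genes sod-3, sek-1, vhl-1, jkk-1 and cysl-1 had no promoter peak in the thresholded list.

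All 6 respiratory-chain genes of the X had a promoter peak, and 65.85% of the 41 autosomal ones. They ran from ucr-2.1, of complex III, with 225.9 (114.5 and 110.2), and sdha-1, of complex II, with 222.7 (117.8 and 107.1), through asb-2, of the ATP synthase, with 142.3 and ucr-2.2 with 87.3, down to gas-1, of complex I, with 51.96 (19.92 and 31.4). The peaks of ucr-2.1, asg-2 and gas-1 also lay in promoter windows of nmat-1, glr-6 and usp-33, in that order. Among all X genes with a promoter peak, 14.69% shared their strongest one with another gene. The X holds 2 of the ribosomal protein genes in the list, and rpl-11.2 had a promoter peak of 214.3 (120.7 and 94.36) while rpl-25.1 had none. Of the autosomal ribosomal protein genes 87.3% had one.

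Nuclear hormone receptor genes had a promoter peak in 16 of 27 X members (59.3%, interval 40.73 to 75.49) and in 28.3% of the 247 autosomal ones. In the replicates alone 14 and 14 of the 27 had one. The strongest were nhr-35 with 404.8 (197.4 and 215), nhr-17 with 284.5 (138.5 and 151.7), nhr-1 with 248.3 (116.1 and 134) and nhr-48 with 220.5 (109.9 and 111.4). The receptor nhr-25, needed for moulting and epidermal fates, had 62.33 (27.72 and 34.56).

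Heterochronic and vulval genes had promoter peaks in 11 of 19 X members and in 29.73% of autosomal ones. The strongest promoter peak of ain-1, whose product works with Argonaute proteins in microRNA silencing, reached 347.2 (180.3 and 166.9). It lay at -975 bp, near the edge of the promoter window. The Argonaute gene alg-1 had 60.97 (23.47 and 33.91). The growth-factor gene egl-17 had 186.9 (97.8 and 87.85), and lin-15B had 162.7 (96.33 and 67.65) at -946 bp. The gene sem-5, of an adaptor of receptor tyrosine kinases, had 136.4 (67.72 and 68.12).

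Among genes of sex determination and dosage compensation 4 of 7 X members and 25% of autosomal ones had a promoter peak. It was strongest at sdc-2, whose product brings the dosage compensation complex to the X, with 117.2 (51.66 and 65.35), followed by sdc-1 with 62.91 (32.03 and 35.19). The genes ceh-39 and fox-1, which count X chromosomes against autosomes, had 53.95 (16.39 and 36.65) and 36.12 (16.53 and 19.14), and neither was occupied in replicate 1 alone. The genes sex-1 and xol-1 had no promoter peak.

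Tissue lists on the X ranged widely. Epidermis and cuticle genes had 8 of 15 with a promoter peak, led by dpy-23, an endocytic adaptor gene, with 297.3 (166.5 and 137.1). The junction gene ajm-1 had 88.41 and the Mediator subunit gene dpy-22 had 76.18. Those of dpy-8, lpr-3, lon-2 and elt-3 were weaker, from 41.08 down to 33.23. Members dpy-3, dpy-6, dpy-7, wrt-2, sym-1, mlt-9 and dlg-1 had no promoter peak in the thresholded list. Intestinal genes had 5 of 17, near the background. They were led by the cathepsin B-like gene cpr-6 with 66.28, the saposin-like gene spp-5 with 64.55 and the intermediate filament gene ifp-1 with 59.35. They also included elt-2, the GATA factor gene of the intestine, with 52.69 (30.42 and 20.77), while the X-linked yolk protein genes vit-1 to vit-5 had none. Pharyngeal genes had 4 of 18, also near the background. The highest was peb-1 with 177 (92.65 and 88.13), followed by pqn-18, pqn-39 and pqn-65 with 79.32, 73.45 and 37.01. Neuronal genes had 5 of 53 with a promoter peak and 8 more with a peak only inside the gene, such as the vesicular monoamine transporter gene cat-1 with 74.28. The strongest promoter peaks among them were at unc-115, an axon guidance gene, with 94.3, unc-18, a synaptic vesicle docking gene, with 81.59, lev-9 with 68.16, in a window shared with mom-1, and the touch channel gene mec-10 with 58.19. Body muscle genes had 1 of 16, the actin gene act-4 with 61.39. No gene of the germline list is on the X.

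Promoter peaks were counted in the other gene families of the lists too. Neuropeptide genes had 1 of 32, chemoreceptor genes 1 of 34, collagen genes 2 of 27, homeobox genes 3 of 26 and C-type lectin genes 0 of 3, each below the share of all X genes and below that of the nuclear receptors. The chemoreceptor gene with one was srv-7, with 221 (110 and 108.8) at -918 bp. The neuropeptide gene was nlp-76 (68.27), the collagen genes col-185 (44.31) and col-176 (36.21), and the homeobox genes ceh-37 (75.19), ceh-39 and dve-1 (37.34). On the autosomes the shares were 12.9%, 1.45%, 4.65%, 11.5% and 2.95% in the same order. Over all 21 lists together, 97 of 344 X genes (28.2%) had a promoter peak, which is near the 24.4% of all X genes.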

How the data were processed

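Peak lists of 2 biological replicates were used, as the authors deposited them on ce11 (WBcel235). Per the text deposited with each sample, peaks were called against a control alignment for each replicate and for the pooled replicates, and 1 list was thresholded by the irreproducible discovery rate. The deposited signal value has no stated scale and ranks peaks within a list only. The sources used here do not name the aligner, peak caller or threshold. Read counts are not in the files, so depth per peak is unknown.

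Summits were placed with Ensembl release 115, with promoters taking precedence, then UTR and coding exons, introns, exons of noncoding RNAs or pseudogenes, and last intergenic sequence. Each replicate alone means its strongest 7168 peaks. X and autosomal shares were compared by Fisher's exact test, two-sided, at an adjusted threshold of 0.05, with 95% Wilson intervals on shares and Newcombe intervals on differences (Python 3.11.15, scipy 1.17.1). The scripts were tested on simulated data. Sequences are from the RefSeq copy of WBcel235. The X and the gene lists were chosen with earlier results of these data known, and 11 list names matched no gene. Genes named are those of the 20 strongest X peaks, the strongest up to 4 occupied X members of each list, those of the strongest peak per location class or E-box form, and the 4 with most promoter peaks. Unoccupied members are named for some of the lists only, so in the others the named genes lean to those with a peak. Of the 3 densest windows some genes are named, not each one there. Others, among them those of the GCGCAGGG peaks, nhr-25, pek-1 and gas-1, were named after their values were seen.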

Additional observations from a re-analysis of the deposited data

How the results depend on the processing

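Among the recomputed values, 86 kept their side of the threshold or moved little, 13 untested ones moved further, 2 became stronger and 3 weaker. No difference that passed in the full list changed sign. Some small differences that did not pass did change sign. That of CACGTG went from -0.12 points to 0.41 without replicate 1 and to 1.16 in the strongest 3584 peaks. In the strongest 3584 peaks the X minus autosome difference fell to 0.65 points for coding exons, 2.16 for introns and 1.64 for distal summits, none past the exact test, while that of CACATG rose to 4.26 points and passed. The cause was not tested. In those peaks the density ratio was 1.36, the share of X genes with a promoter peak 13.6% and the share in the middle stretch 34.1%. Narrower promoter windows (500 bp up, 100 bp down) gave 19.1% of X genes and wider ones (2000 and 200 bp) 30.5%, by their construction. The density ratio was 1.40 per Mb of promoter, 1.83 of intron and 1.19 of intergenic sequence. With a single replicate the density ratio ran from 1.39 to 1.43, the share of X genes from 23.8% to 24.1%, the share in the middle stretch from 34.7% to 34.8%, and the CACATG difference from 1.51 to 2.81 points, passing only without replicate 2. The share found in both replicates has no value with a replicate left out. No paired analysis was possible because the series holds 1 group.

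Depth is unknown, and the signal has no stated scale. The control library is not used here, so differences in mappability or background between X and autosomes were not tested. With 1 X chromosome, features of the X and of its gene and tRNA content cannot be told apart.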
